A study of Mus musculus with 12 samples.

Results

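Endothelial cells are held together by junction proteins of a few families, and 8 of their genes are described here in the arteries of the mouse embryo: Pecam1, Esam, F11r, Jam2, Jam3, Cldn5, Ocln and Tjp1. The genes were taken by symbol from the deposited table of gene expression, where all 8 are among 33531 genes. All 8 also passed the filter on low values that left 13278 genes for testing. The cells were sorted from major arteries (aorta, vitelline and umbilical) of 122 embryos at embryonic day 11.5, from F1 mothers (C57BL/6 x 129S1/SVImJ) and Tg(Ly6a-GFP) fathers. Each of 4 populations was divided into 3 pools, called replicates 1 to 3. HC GFP+ are hematopoietic cluster cells with the Ly6a-GFP reporter on (53000 cells in all), and HC GFP- are cluster cells with it off (413000 cells). EC GFP+ are endothelial cells with the reporter on (377000 cells), and EC GFP- are endothelial cells with it off (791000 cells). Every population was sorted as CD31+, CD144+ and ESAM+ from embryos that carried the transgene, and c-Kit set cluster cells (c-Kit+) apart from endothelium (c-Kit-). GFP+ and GFP- are therefore states of a reporter driven by Ly6a (Sca-1) sequences, and each pool mixes embryos.

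Hematopoietic clusters arise from the arterial wall when endothelial cells round up, turn on blood genes and leave the cell layer, so that contacts with the neighbouring endothelium are given up. Tight junction strands are built by claudins and by MARVEL proteins such as occludin, and plaque proteins such as ZO-1 tie the strands to the actin cytoskeleton. Immunoglobulin-type proteins (PECAM-1, ESAM and the junctional adhesion molecules, or JAMs) sit at the same contacts and bind like or related partners on the next cell, and several of them are also docking sites for integrins of white blood cells. CD31 is the protein of Pecam1, and ESAM that of Esam, so the choice of cells set the presence of these RNAs in all 4 populations.

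The values are FPKM, counts of sequenced fragments divided by transcript length and by the mapped fragments of the library, and so are per length. The summed FPKM of a library lay between 555675 and 691948, and 12147 to 12779 genes reached 1 FPKM; the number of reads behind the values is unknown. As a check of the labels, the sum of 10 blood genes was 327 to 622 FPKM in HC GFP+, 111 to 252 in HC GFP-, 67.9 to 76.2 in EC GFP+ and 39.4 to 43.4 in EC GFP-. The sum of 10 endothelial genes was 2390 to 2665 FPKM in HC GFP+, 1960 to 2609 in HC GFP-, 3350 to 3566 in EC GFP+ and 2085 to 2748 in EC GFP-. Genes typical of other cell types were read as well, and which cells their RNA came from was not tested. The sum of 11 erythroid genes was 843 to 1173 FPKM in HC GFP+, 6419 to 9820 in HC GFP-, 960 to 2443 in EC GFP+ and 3371 to 7832 in EC GFP-. The sum of 13 smooth muscle and mesenchyme genes was 275 to 592 FPKM in HC GFP+, 463 to 1366 in HC GFP-, 274 to 532 in EC GFP+ and 304 to 1296 in EC GFP-. The mesenchyme sums of GFP+ and GFP- overlapped in both cell types through GFP- replicate 2 (463 FPKM in HC, 304 in EC). The other GFP- pools were at 971 to 1366 FPKM. The median log2 change of the 13 genes in GFP+ against GFP-, on the scale given below, was -0.80 in HC and -0.92 in EC. The sum of 8 macrophage genes was 215 to 1333 FPKM in HC GFP+ and 222 to 727 in HC GFP-, and at most 28.8 in an EC library. No gene of these lists was at 0 in all 12 libraries. HC GFP- replicate 2 stood apart from the other HC GFP- pools, with an endothelial sum of 2609 FPKM against 1960 and 2032, a mesenchyme sum of 463 FPKM against 1364 and 1366, and 7 of the 8 junction genes above the mean of its group.

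Changes between groups are log2 changes on the log2(FPKM + 1) scale with their standard error (SE), from a limma fit over all 12 libraries, with Benjamini-Hochberg adjusted p over the 13278 genes and a threshold of 0.05. This scale understates the changes of genes near 1 FPKM. The labels call the pools independent, and the p-values measure the spread between them.

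Cldn5 was the most abundant of the 8 RNAs and Ocln the least abundant in every population, although both encode strand proteins of the tight junction. Cldn5, the claudin typical of endothelium, averaged 316 ± 29 FPKM in HC GFP+, 391 ± 78 in HC GFP-, 523 ± 6.4 in EC GFP+ and 416 ± 31 in EC GFP- (SD, n = 3 pools each). By these means it ranked 238th in HC GFP+, 198th in HC GFP-, 153rd in EC GFP+ and 203rd in EC GFP- among all genes of the table. Pecam1 and Esam followed at 146 to 424 FPKM, F11r and Tjp1 lay at 56.7 to 98.8 FPKM, and Jam3 at 17.1 to 20.8 FPKM, as means of the populations. Jam2 reached 14.5 FPKM in EC GFP+ at most, and Ocln 10.5 FPKM. The summed level of the 8 genes was 931 ± 54 FPKM in HC GFP+, 940 ± 177 in HC GFP-, 1435 ± 15 in EC GFP+ and 1128 ± 72 in EC GFP- (SD, n = 3 pools each).

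**Figure D1:**
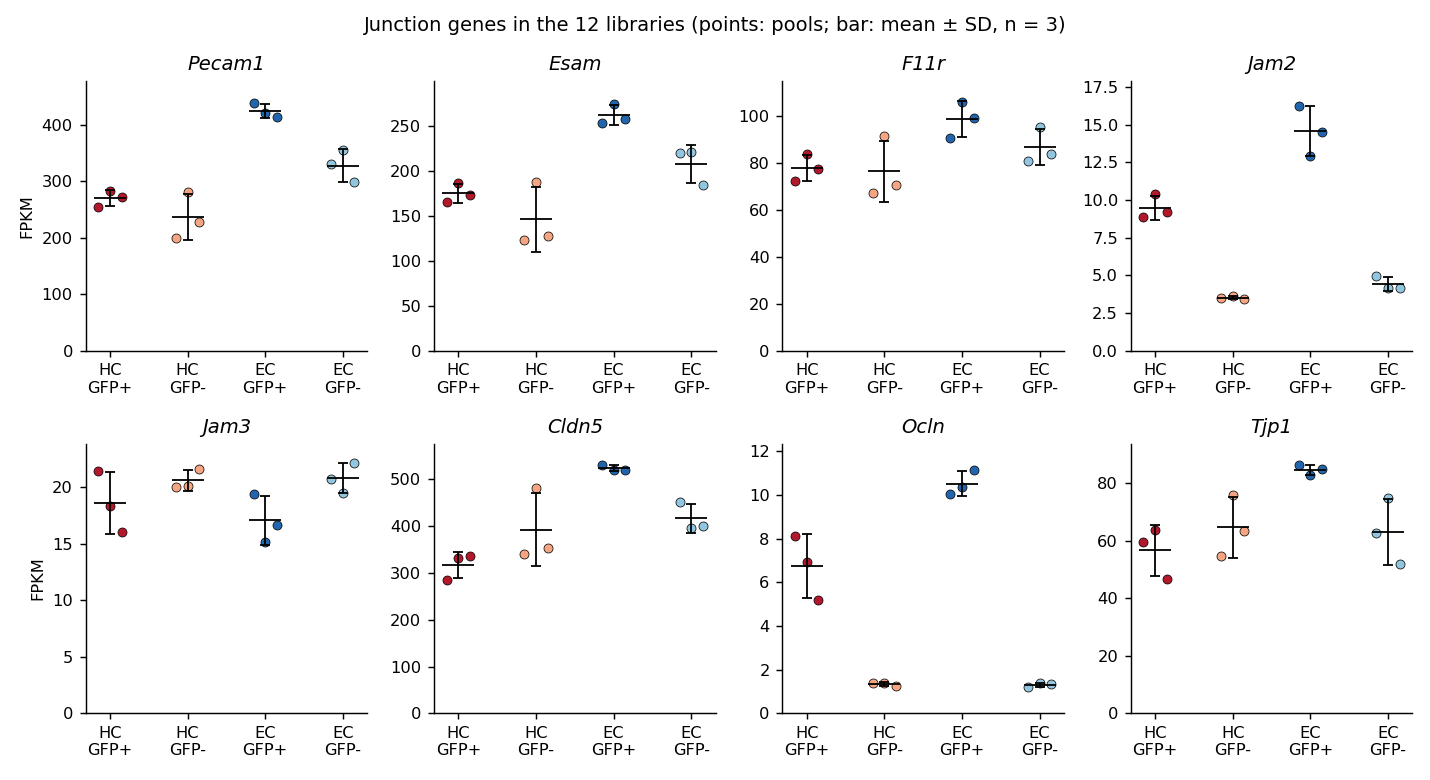
FPKM of the 8 junction genes in the 4 sorted populations, on linear axes from 0; points are the 3 pools of a population, and bars are the mean ± SD. Ocln and Jam2 separate GFP+ from GFP- pools in both cell types, while Jam3 lies between 15.1 and 22.1 FPKM in all 12 libraries.

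Ocln and Jam2 were the genes that followed the reporter. Both were higher in GFP+ than in GFP- cells within the clusters and again within the endothelium, several-fold, whereas the more abundant junction genes differed by less than 1 log2 unit in every comparison. In bulk libraries such as these, fewer cells that express a gene and less RNA per cell cannot be told apart.

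Ocln encodes occludin, a membrane protein of tight junction strands. It was at 8.12, 6.93 and 5.21 FPKM in HC GFP+ replicates 1 to 3, against 1.39, 1.39 and 1.26 FPKM in HC GFP-. It was at 10.1, 10.4 and 11.2 FPKM in EC GFP+, against 1.22, 1.39 and 1.33 FPKM in EC GFP-. Every GFP+ pool lay above every GFP- pool, and the GFP- pools of both cell types were near the 1 FPKM used as the filter. Its mean was 5.01 times higher in HC GFP+ than in HC GFP-, a log2 change of 1.71 ± 0.14 (SE, limma adjusted p = 7.28e-05). In endothelium the mean was 8.01 times higher in EC GFP+ than in EC GFP-, a log2 change of 2.32 ± 0.14 (SE, limma adjusted p = 3.06e-06). The HC change minus the EC change was -0.61 ± 0.20 on the log2 scale (SE), and the test of this difference did not pass (limma unadjusted p = 0.0107, adjusted p = 0.245).

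Jam2 encodes JAM-B, an immunoglobulin-type protein of endothelial contacts that binds JAM-C. It was at 8.85, 10.4 and 9.21 FPKM in HC GFP+ replicates 1 to 3, against 3.51, 3.60 and 3.41 FPKM in HC GFP-. It was at 16.2, 12.9 and 14.5 FPKM in EC GFP+, against 4.93, 4.18 and 4.16 FPKM in EC GFP-. The GFP+ and GFP- pools did not overlap in either cell type, and unlike Ocln the gene kept several FPKM in the GFP- pools. The mean was 2.70 times higher in HC GFP+ than in HC GFP- (log2 change 1.21 ± 0.11, SE, limma adjusted p = 0.000146). It was 3.29 times higher in EC GFP+ than in EC GFP- (log2 change 1.52 ± 0.11, SE, limma adjusted p = 1.05e-05).

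Ocln and Jam2 kept their calls when libraries were scaled on endothelial marker genes, which is a weak test for changes of this size. That scaling lowered the median change of all genes by 0.17 log2 in HC and 0.42 in EC, less than the changes of Ocln and Jam2. The part of endothelial content in the Ocln and Jam2 changes was not tested. With the libraries scaled to an equal sum of the 10 endothelial genes, a setting chosen after the data were seen, Ocln was still higher in HC GFP+ than in HC GFP- by 1.61 and in EC GFP+ than in EC GFP- by 1.90 on the log2 scale, and Jam2 by 1.07 in both. Occludin is also an epithelial protein, and the 11 genes fixed for epithelium and mesonephros summed to 31.2 to 52.7 FPKM in HC GFP+, 37.2 to 68.3 in HC GFP-, 42.4 to 48.6 in EC GFP+ and 25.3 to 69.8 in EC GFP-, ranges that overlap. None of the 6 tested passed in limma in either GFP comparison, with 1 (Krt8) at an unadjusted p under 0.05 in HC and 0 in EC. Epcam, a defining epithelial gene, was at 2.48 to 5.09 FPKM in HC GFP+, 2.65 to 3.82 in HC GFP-, 2.62 to 4.34 in EC GFP+ and 2.65 to 3.29 in EC GFP-. Whether epithelial RNA had a part in the Ocln values was not tested.

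Ocln had the largest GFP changes, and Cldn5 had the highest level and, with the deposited values, no GFP change that passed. Their start-site sequences are shown. Both are RefSeq windows of build GRCm38.p6, from 250 bases before to 50 bases after the annotated start, 5′ to 3′ on the gene's strand, at chr13:100552669-100552968 (minus strand, the upstream of 2 listed Ocln starts) and chr16:18776597-18776896 (plus strand). Capitals mark the letters found for 7 motifs searched on both strands: the ETS core CCGGAA, the RUNX core TGTGGT, the GATA factor core GATAA, the SOX core ACAAT, the RBPJ core TGGGAA, the GC box GGGCGG and the TATA box TATAAA. No matches overlap in these windows.
Ocln: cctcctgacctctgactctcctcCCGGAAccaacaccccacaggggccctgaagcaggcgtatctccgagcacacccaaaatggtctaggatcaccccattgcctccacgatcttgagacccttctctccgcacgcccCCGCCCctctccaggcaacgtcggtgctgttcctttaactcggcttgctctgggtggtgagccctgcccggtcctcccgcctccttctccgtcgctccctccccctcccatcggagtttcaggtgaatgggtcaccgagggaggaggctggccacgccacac
Cldn5: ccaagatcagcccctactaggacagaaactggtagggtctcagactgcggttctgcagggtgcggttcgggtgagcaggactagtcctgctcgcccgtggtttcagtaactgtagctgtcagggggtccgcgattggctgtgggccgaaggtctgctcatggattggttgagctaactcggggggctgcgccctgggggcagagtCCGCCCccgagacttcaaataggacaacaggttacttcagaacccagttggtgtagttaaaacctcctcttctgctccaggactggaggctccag
The Ocln window holds CCGGAA at position -227 from the start and the reverse complement of GGGCGG at position -112. The window of the other listed Ocln start, which overlaps the one shown, holds GGGCGG at position -43 and no match to CCGGAA or the other 5. The Cldn5 window holds the reverse complement of GGGCGG at position -45 and no match to the other 6. Of the 32851 promoter windows of the same length, 14.9% hold CCGGAA and 35.7% hold GGGCGG on either strand. The windows have 64.0% G and C in Ocln and 58.3% in Cldn5, against a median of 52.7% over all windows. Windows were listed for 4 of the 8 genes, the other 2 being F11r and Tjp1.

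The make-up of the JAM genes differed with Jam2. F11r encodes JAM-A, a tight junction protein of endothelium, epithelium and blood cells, and Jam3 encodes JAM-C, the partner of JAM-B. F11r made up the bulk of the summed JAM level everywhere, with 73.5 ± 2.6% in HC GFP+, 75.8 ± 3.1% in HC GFP-, 75.7 ± 3.7% in EC GFP+ and 77.4 ± 2.4% in EC GFP- (SD, n = 3 pools each). Jam2 made up 8.94 ± 0.31% in HC GFP+ and 3.52 ± 0.37% in HC GFP-, and 11.2 ± 1.6% in EC GFP+ and 3.97 ± 0.58% in EC GFP-. Its share was 8.62% or more in each of the 6 GFP+ pools and 4.63% or less in each of the 6 GFP- pools. The ratio of Jam3 to Jam2 was 1.98 ± 0.39 in HC GFP+ and 5.87 ± 0.41 in HC GFP-, and 1.17 ± 0.03 in EC GFP+ and 4.72 ± 0.56 in EC GFP-. These shares are ratios within a library, so a factor applied to a whole library leaves them as they are.

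**Figure D2:**
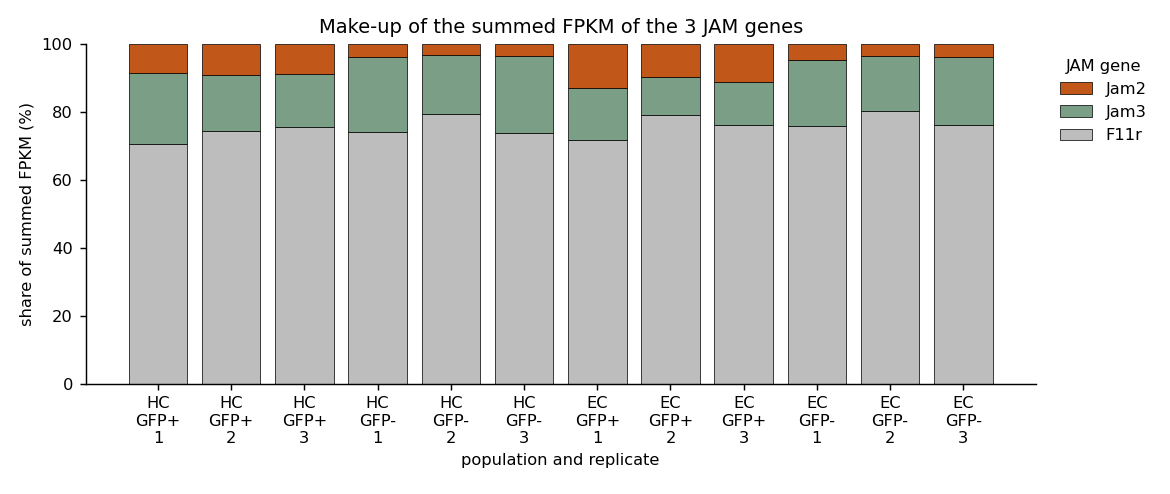
Share of each JAM gene in the summed FPKM of F11r, Jam2 and Jam3 (percent), a stacked bar for each of the 12 libraries. Jam2 takes at least 8.62% in the 6 GFP+ libraries and at most 4.63% in the 6 GFP- libraries.

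The ratios of Cldn5 and Tjp1 to Ocln followed from the change of Ocln given above, which was far larger than theirs, and are no further result. The ratio of Cldn5 to Ocln was 49.0 ± 14.7 in HC GFP+ and 290 ± 52 in HC GFP-, and 49.8 ± 3.1 in EC GFP+ and 319 ± 46 in EC GFP- (SD, n = 3 pools each). The ratio of Tjp1 to Ocln was 8.50 ± 1.02 in HC GFP+ and 48.0 ± 7.8 in HC GFP-, and 8.06 ± 0.48 in EC GFP+ and 48.1 ± 8.0 in EC GFP-. Both ratios lay lower in all GFP+ pools than in all GFP- pools.

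Jam3 and F11r did not pass the test in any of the 5 comparisons with the deposited values. Jam3 was at 21.4, 18.3 and 16.0 FPKM in HC GFP+, against 20.0, 20.1 and 21.6 FPKM in HC GFP-, and at 19.4, 15.1 and 16.6 FPKM in EC GFP+, against 20.7, 19.4 and 22.1 FPKM in EC GFP-. Within endothelium the GFP+ pools of Jam3 lay just below the GFP- pools, with a log2 change of -0.27 (95% limits -0.53 to -0.02, limma adjusted p = 0.146). F11r was at 72.4, 83.8 and 77.7 FPKM in HC GFP+, against 67.4, 91.5 and 70.8 FPKM in HC GFP-, and at 90.9, 106 and 99.4 FPKM in EC GFP+, against 80.9, 95.5 and 83.9 FPKM in EC GFP-. The GFP+ and GFP- pools of F11r overlapped in both cell types. Scalings gave calls in EC GFP+ against EC GFP-: under the equal endothelial marker sum both were called lower (log2 changes of -0.73 for Jam3 and -0.30 for F11r, limma adjusted p = 0.0104 and 0.0459), and under an equal FPKM sum F11r was called higher (0.39, adjusted p = 0.0452). Relative to the median of all genes, the changes under the equal endothelial marker sum were -0.28 for Jam3 and 0.16 for F11r. A factor applied to a whole library moves a gene and that median nearly alike, so relative values stay nearly unchanged by construction. An annotated antisense gene overlaps Jam3 in the GRCm38 annotation and other short genes overlap Tjp1, and the counting is not stated to use strand, so reads of overlapping genes could not be told apart.

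Among the 8 genes, 2 were called higher and 0 lower in HC GFP+ than in HC GFP- by limma, where 2.98% of all tested genes were called higher and 1.28% lower. In EC GFP+ against EC GFP-, 3 were called higher and 0 lower, where 6.96% of all tested genes were called higher and 6.51% lower. The median log2 change of the 8 was 0.12 in the HC comparison, against 0.00 over all tested genes, and 0.35 in the EC comparison, against -0.03 over all. Besides Ocln and Jam2, the third call in endothelium was Pecam1.

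Pecam1, which marks the lateral border of all endothelium, was at 439, 421 and 414 FPKM in EC GFP+ replicates 1 to 3, against 330, 356 and 298 FPKM in EC GFP-. The pools did not overlap, and the log2 change was 0.37 ± 0.11 (SE, limma adjusted p = 0.0485). This call sat at the threshold: it was lost without any of the EC GFP+ pools or without EC GFP- replicates 1 or 3 (log2 change 0.31 to 0.39), and without HC GFP- replicate 3 or any HC GFP+ pool, which enter only through the shared spread. It was also lost with no filter on low values (adjusted p = 0.0886), with no intensity trend (0.0729), with the pair of groups fitted alone (0.0510) and under the equal endothelial marker sum (0.344). The call was kept under the equal upper quartile (log2 change 0.38, limma adjusted p = 0.0412) and quantile normalization (0.52, adjusted p = 0.0186). Under an equal FPKM sum it was kept at 0.58 with all genes (adjusted p = 0.00646) and at 0.52 without globins and mitochondrial genes (adjusted p = 0.0124). Pecam1 was at 255, 283 and 272 FPKM in HC GFP+, against 200, 281 and 229 FPKM in HC GFP-, groups that overlap through HC GFP- replicate 2 (log2 change 0.20 ± 0.11, SE, limma adjusted p = 0.395).

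Esam, Cldn5 and Tjp1 were also higher in each EC GFP+ pool than in each EC GFP- pool, without passing the test. Esam, an adhesion molecule of endothelial tight junctions, was at 254, 275 and 257 FPKM in EC GFP+, against 220, 221 and 184 FPKM in EC GFP- (log2 change 0.34, 95% limits 0.03 to 0.65, limma adjusted p = 0.143). Tjp1, which encodes the plaque protein ZO-1, was at 86.3, 82.7 and 84.9 FPKM in EC GFP+, against 62.7, 74.8 and 51.9 FPKM in EC GFP- (log2 change 0.43, 95% limits 0.10 to 0.77, limma adjusted p = 0.0887). With Pecam1, Ocln and Jam2 this makes 6 of 8 genes whose EC GFP+ pools all lay above the EC GFP- pools, against 14.8% of all tested genes. Without HC GFP- replicate 2, which enters this comparison only through the shared spread, Esam and Cldn5 were called (limma adjusted p = 0.0278 and 0.0267), and Tjp1 was called without EC GFP- replicate 2 (log2 change 0.56, adjusted p = 0.0352).

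The endothelial marker genes lay the same way in this comparison. The sum of the 10 endothelial genes was 3350 to 3566 FPKM in EC GFP+, against 2085 to 2748 in EC GFP-, and 6 of the 10 were called higher, while 8 of 11 erythroid genes were called lower. When libraries were scaled to an equal sum of the 10 endothelial genes, the log2 change turned to -0.11 for Pecam1, -0.15 for Esam, -0.16 for Cldn5, -0.30 for F11r and -0.05 for Tjp1, and that scaling lowered the median change of all genes by 0.42 log2. Relative to that median the changes were 0.34 for Pecam1, 0.30 for Esam, 0.30 for Cldn5, 0.16 for F11r and 0.40 for Tjp1, close to those of the deposited values. That closeness was fixed by the scaling, which moves each gene and the median nearly alike, and it is no test of the changes. With libraries scaled to an equal FPKM sum instead, 7 of the 8 genes were called higher, and that scaling raised the median of all genes by 0.17 log2.

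**Figure D3:**
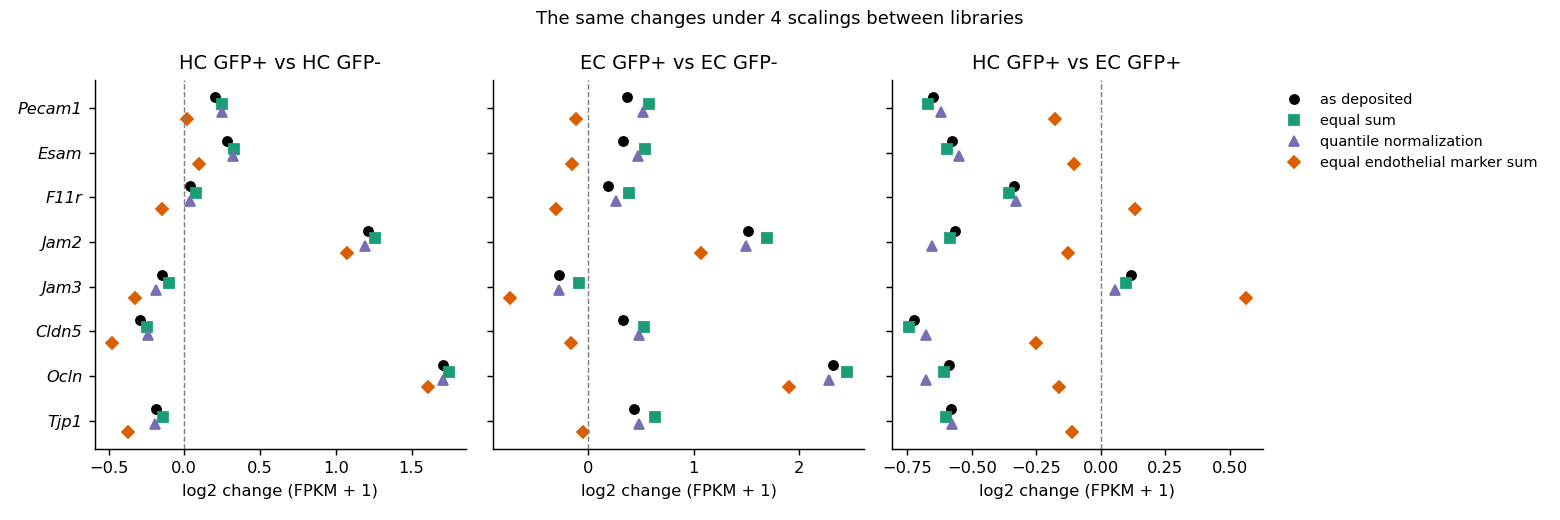
log2 change of the 8 genes in 3 comparisons, with the deposited FPKM (black circles) and after 3 other scalings between libraries. Ocln and Jam2 stay at log2 changes of 1.07 or more in both GFP comparisons under each scaling. The smaller EC changes of Pecam1, Esam, F11r, Cldn5 and Tjp1 turn negative when libraries are scaled to an equal endothelial marker sum. That scaling lowers the EC median of all genes by 0.42, less than the deposited changes of Ocln and Jam2.

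In the deposited values Cldn5 had opposite orders of GFP+ and GFP- in the clusters and in the endothelium, with neither difference past the threshold. It was at 284, 330 and 335 FPKM in HC GFP+, against 339, 481 and 354 FPKM in HC GFP-, so that each HC GFP+ pool lay below each HC GFP- pool. It was at 530, 519 and 519 FPKM in EC GFP+, against 452, 396 and 400 FPKM in EC GFP-, so that each EC GFP+ pool lay above each EC GFP- pool. The log2 change was -0.29 ± 0.12 in HC (SE, limma adjusted p = 0.249) and 0.33 ± 0.12 in EC (adjusted p = 0.0991). The EC change was called under an equal FPKM sum (0.53, limma adjusted p = 0.00772), under that sum without globins and mitochondrial genes (0.48, adjusted p = 0.0144) and under quantile normalization (0.48, adjusted p = 0.0146). Under the equal endothelial marker sum the EC change was -0.16 and the HC change -0.48, so both were negative. The EC change relative to the median of all genes was 0.37 in the deposited values and 0.30 under the equal endothelial marker sum. In the deposited values the HC change minus the EC change was -0.62 ± 0.17 (SE, limma unadjusted p = 0.00409, adjusted p = 0.154). Among the alternatives run, this difference was called only under the 2 scalings to an equal FPKM sum, at -0.78 with all genes (adjusted p = 0.0424) and -0.76 without globins and mitochondrial genes (adjusted p = 0.0485). Relative to the median of all genes it was -0.68 under both and -0.66 in the deposited values, a likeness that whole-library scaling gives by construction.

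Tjp1 had the same orders by its means, but its HC pools overlapped, with 59.5, 63.7 and 46.8 FPKM in HC GFP+ against 54.9, 75.9 and 63.4 FPKM in HC GFP-. Its HC change minus its EC change was -0.62 ± 0.22 (SE, limma unadjusted p = 0.0155, adjusted p = 0.282). None of the 8 genes passed the limma test of this difference, where 0.527% of all tested genes were called, and 3 of the 8 (Cldn5, Ocln and Tjp1) had an unadjusted p under 0.05. The HC and EC effects of the reporter were therefore not shown to differ for any of the 8.

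**Figure D4:**
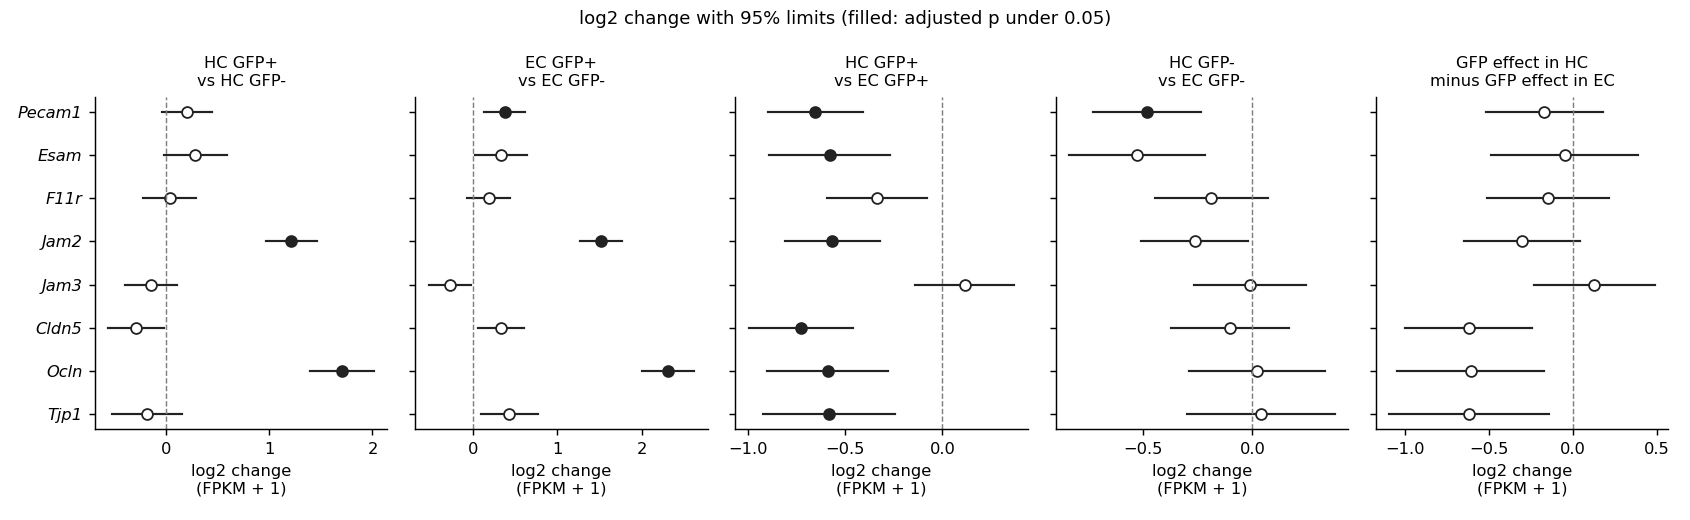
log2 change of each of the 8 genes in the 5 comparisons, with 95% limits; filled circles have an adjusted p under 0.05, and each panel has its own axis. Ocln and Jam2 lie to the right of 0 in both GFP comparisons, and 6 genes lie to the left of 0 with filled circles in HC GFP+ against EC GFP+.

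Of the 5 comparisons, that of HC GFP+ with EC GFP+ had the most calls among the 8 genes. In HC GFP+ against EC GFP+, 6 of the 8 junction genes were called lower and 0 higher, where 6.09% of all tested genes were called lower and 8.21% higher. The median log2 change of the 8 was -0.58, against 0.05 over all tested genes. The log2 changes of the 6 lay between -0.57 and -0.73, and Jam3 was the exception in direction with a log2 change of 0.12 (95% limits -0.14 to 0.37, limma adjusted p = 0.570).

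Cldn5 had the largest of these changes, with 284, 330 and 335 FPKM in HC GFP+ against 530, 519 and 519 FPKM in EC GFP+ (log2 change -0.73 ± 0.12, SE, limma adjusted p = 0.00282). Pecam1 followed, with 255, 283 and 272 FPKM in HC GFP+ against 439, 421 and 414 FPKM in EC GFP+ (log2 change -0.65 ± 0.11, SE, limma adjusted p = 0.00308). For Esam the pools read 166, 186 and 174 FPKM in HC GFP+ and 254, 275 and 257 FPKM in EC GFP+, with a log2 change of -0.58 ± 0.14 (SE, limma adjusted p = 0.0186). None of these groups overlapped. Ocln and Jam2 changed by -0.59 ± 0.14 and -0.57 ± 0.11 (SE, limma adjusted p = 0.0173 and 0.00646), on the values given above. Tjp1 changed by -0.58 ± 0.15 (SE, limma adjusted p = 0.0270). The F11r pools were likewise all lower in HC GFP+ than in EC GFP+ without passing (log2 change -0.34, 95% limits -0.59 to -0.08, limma adjusted p = 0.0799), which makes 7 of 8 genes with that order, against 13.8% of all tested genes. F11r was called without HC GFP- replicate 2 (adjusted p = 0.0310) and with the replicate block (adjusted p = 0.0133), at the same log2 change.

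Of these 6 calls, those of Cldn5, Pecam1 and Jam2 held when each library was left out in turn. Esam lost its call without HC GFP+ replicate 1 or 3 or without EC GFP+ replicate 2, Ocln without EC GFP+ replicate 3, and Tjp1 without HC GFP+ replicate 1 or 3 or any EC GFP+ pool, at log2 changes between -0.45 and -0.62. Tjp1 also lost it with no filter (adjusted p = 0.0525) and Ocln with the pair of groups fitted alone (adjusted p = 0.0594). The sum of the 10 endothelial genes was itself 2390 to 2665 FPKM in HC GFP+ and 3350 to 3566 in EC GFP+, and 6 of those 10 were called lower. When libraries were scaled to an equal sum of them, none of the 6 junction genes remained called (log2 changes -0.11 to -0.25), F11r turned to 0.13, and Jam3 was called higher (log2 change 0.56, limma adjusted p = 0.0297). That scaling raised the median change of all genes by 0.41 log2. Relative to the median of all genes, the changes of the 6 were -0.57 to -0.71 with that scaling and -0.62 to -0.78 in the deposited values. The relative change of Jam3 was 0.10 with that scaling and 0.06 in the deposited values. Whole-library scaling keeps such relative values nearly the same by construction, so they do not test the calls.

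Only Pecam1 was called lower, and 0 genes higher, among the 8 genes in HC GFP- against EC GFP- by limma, where 1.93% of all tested genes were called lower and 2.36% higher. It was at 200, 281 and 229 FPKM in HC GFP-, against 330, 356 and 298 FPKM in EC GFP- (log2 change -0.48 ± 0.11, SE, limma adjusted p = 0.0377). That call was lost without HC GFP- replicate 1 or 3, EC GFP- replicate 1 or 2, HC GFP+ replicate 1 or any EC GFP+ pool, at log2 changes of -0.37 to -0.48. It was also lost with no filter, with no intensity trend, with the pair of groups fitted alone and under each scaling but the upper quartile. For Esam the values were 123, 188 and 127 FPKM in HC GFP-, against 220, 221 and 184 FPKM in EC GFP- (log2 change -0.53 ± 0.14, SE, limma adjusted p = 0.0620), and with the replicate block it was called (adjusted p = 0.0334). Without HC GFP- replicate 2, the pool that stood apart, Esam was called lower here (log2 change -0.72, adjusted p = 0.00293) and higher in HC GFP+ than in HC GFP- (0.48, adjusted p = 0.0250). Ocln was at 1.26 to 1.39 FPKM in HC GFP- and 1.22 to 1.39 FPKM in EC GFP-, a log2 change of 0.02 (95% limits -0.29 to 0.33, limma adjusted p = 0.955). The median log2 change of the 8 genes was -0.15, against 0.01 over all tested genes.

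Ordered by mean level, Ocln and Jam2 ran EC GFP+, HC GFP+ and then the GFP- populations, whereas Pecam1 and Esam ran EC GFP+, EC GFP-, HC GFP+ and HC GFP-. For Ocln the pools of neighbouring populations did not overlap except between HC GFP- and EC GFP-. For Jam2 no neighbouring populations overlapped. For Pecam1 only HC GFP+ and HC GFP- overlapped, and for Esam only EC GFP+ stood clear of the next population. Cldn5 ran EC GFP+, EC GFP-, HC GFP- and HC GFP+, with an overlap between EC GFP- and HC GFP-. F11r and Jam3 overlapped between all neighbours, and in Tjp1 only EC GFP+ stood clear. The ratio of Pecam1 to Cdh5, which encodes VE-cadherin (CD144), was 0.591 ± 0.038 in HC GFP+, 0.545 ± 0.030 in HC GFP-, 0.596 ± 0.027 in EC GFP+ and 0.643 ± 0.043 in EC GFP- (SD, n = 3 pools each). The HC GFP- pools, at 0.523 to 0.579, all lay below the EC GFP- pools, at 0.609 to 0.692, and the GFP+ populations overlapped.

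Over the 12 libraries, the 2 genes nearest to each member were those with the smallest root mean square difference of log2(FPKM + 1) after centring, among tested genes with a mean of 5 FPKM or more. Nearest to Ocln were Procr, the endothelial protein C receptor (difference 0.227), and Ctsh, a lysosomal cathepsin (0.272), where the root mean square of Ocln about its own mean was 1.03. Nearest to Jam2 were Thbd, which encodes thrombomodulin (0.164), and Fam189a2 (0.181), against 0.723 for Jam2 itself. Pecam1 and Esam were near each other (0.0767), and Eva1a was among the nearest of both (0.0750 to Pecam1 and 0.0868 to Esam). Nearest to Cldn5 were Crip2 (0.0727) and Amotl2, an angiomotin-like plaque protein (0.112), against 0.291 for Cldn5 itself.

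The other genes of the junction were read from 5 lists of partners. Among all tested genes, 2.98% were called higher and 1.28% lower in HC GFP+ than in HC GFP-. The shares were 6.96% higher and 6.51% lower in EC GFP+ than in EC GFP-. They were 8.21% higher and 6.09% lower in HC GFP+ than in EC GFP+. Counts of 0 or 1 in lists this short are not read as results about a list. Of 25 claudins, 24 were in the table and 9 were expressed highly enough to be tested, and Cldn5 made up 81.6 ± 3.1% of the summed claudin level in HC GFP+, 84.5 ± 2.7% in HC GFP-, 85.1 ± 1.1% in EC GFP+ and 84.5 ± 2.6% in EC GFP- (SD, n = 3 pools each). By limma, 0 claudins were called higher and 1 lower in HC GFP+ than in HC GFP-, and 1 higher and 0 lower in EC GFP+ than in EC GFP-. Lower in HC GFP+ was Cldn13, which was listed at 0, 0.197 and 0.518 FPKM in HC GFP+ pools, against 1.46, 2.60 and 3.01 FPKM in HC GFP- pools (limma adjusted p = 0.00783). Beside it, 9 of 11 erythroid genes were called lower in HC GFP+, and their part in this value was not tested. Higher in EC GFP+ was Cldn11, at 8.10 to 11.4 FPKM in EC GFP+ against 5.60 to 6.27 FPKM in EC GFP- (log2 change 0.71 ± 0.18, SE, limma adjusted p = 0.0242), a call lost without EC GFP+ replicate 1 or 2 or EC GFP- replicate 3 (log2 change 0.63 to 0.69). Cldn5 and Cldn25 were called lower in HC GFP+ than in EC GFP+, and 0 claudins higher.

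Among 21 tested genes of the plaque and MARVEL list, 1 was called higher in HC GFP+ than in HC GFP- and 5 in EC GFP+ than in EC GFP-, with none lower by limma. The gene called in both was Lsr, whose protein recruits tricellulin to tricellular corners and is itself neither a plaque nor a MARVEL protein. Lsr was at 5.57 to 7.11 FPKM in HC GFP+ against 1.98 to 3.88 in HC GFP-, and at 16.6 to 17.8 FPKM in EC GFP+ against 4.73 to 6.83 in EC GFP-. Its log2 change was 0.82 ± 0.19 in HC (SE, limma adjusted p = 0.0306) and 1.40 ± 0.19 in EC (adjusted p = 0.000731). The HC call was lost without any HC GFP+ pool, without HC GFP- replicate 2 or 3 or without EC GFP+ replicate 1, at log2 changes of 0.60 to 0.92. Marveld2, the gene of tricellulin and a relative of occludin, was at 3.25 to 3.58 FPKM in HC GFP+ against 1.98 to 2.16 in HC GFP-, groups that did not overlap but did not pass (log2 change 0.54 ± 0.17, SE, limma adjusted p = 0.111). In endothelium it was called, at 4.58 to 5.28 FPKM in EC GFP+ against 1.48 to 3.12 in EC GFP- (log2 change 0.91 ± 0.17, SE, limma adjusted p = 0.00534).

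Among 12 tested adherens junction genes, 1 was called higher in HC GFP+ than in HC GFP- and 4 in EC GFP+ than in EC GFP-, with none lower. Ptprb, the vascular phosphatase VE-PTP that binds VE-cadherin, was called in both. It was at 30.6 to 38.5 FPKM in HC GFP+ against 15.9 to 18.9 in HC GFP- (log2 change 0.94 ± 0.17, SE, limma adjusted p = 0.0102). It was at 61.7 to 67.1 FPKM in EC GFP+ against 13.7 to 25.0 in EC GFP- (log2 change 1.75 ± 0.17, SE, limma adjusted p = 9.47e-05). Of the 12, 7 were called lower in HC GFP+ than in EC GFP+ and 0 higher, among them Jup, which encodes plakoglobin (log2 change -0.83 ± 0.12), Cdh5 (-0.64 ± 0.13) and Ctnnb1, which encodes beta-catenin (-0.43 ± 0.07).

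Among 12 tested genes of the list of other immunoglobulin-type proteins, 0 were called in HC GFP+ against HC GFP- by limma, with 4 at an unadjusted p under 0.05. In EC GFP+ against EC GFP-, 1 was called higher. That gene was Icam1, which binds leukocyte integrins, at 66.3 to 71.0 FPKM in EC GFP+ against 32.9 to 45.4 in EC GFP- (log2 change 0.75 ± 0.14, SE, limma adjusted p = 0.00496). Between HC GFP+ and EC GFP+, 3 were called lower and 0 higher in HC GFP+, with Mcam, the gene of CD146, at -0.82 ± 0.12 and Icam2 at -0.76 ± 0.13 on the log2 scale (SE, limma adjusted p = 0.00102 and 0.00294).

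Of the 8 tested genes of integrins and other blood-cell partners, 4 were called higher and 1 lower in HC GFP+ than in EC GFP+, and 3 did not pass. Itga4, a subunit of a partner of JAM-B, was at 6.77 to 8.53 FPKM in HC GFP+, 2.82 to 4.55 in HC GFP-, 2.12 to 2.73 in EC GFP+ and 1.54 to 2.21 in EC GFP-. Its log2 change was 1.40 ± 0.17 in HC GFP+ against EC GFP+ (SE, limma adjusted p = 0.000443) and 0.88 ± 0.17 in HC GFP+ against HC GFP- (adjusted p = 0.0134), the call against HC GFP- being lost without HC GFP+ replicate 1 (0.84). Itgal, a partner subunit of JAM-A, and Itgam, one of JAM-C, were higher in HC GFP+ than in EC GFP+ by 1.59 ± 0.28 and 2.21 ± 0.35 log2 (SE, limma adjusted p = 0.00352 and 0.00202), beside the macrophage genes, all 8 of which were called higher there. Their part in the integrin values was not tested. Itgb1, the shared beta subunit of many adhesion receptors, ran with the junction genes, at 282 to 311 FPKM in HC GFP+ against 393 to 418 in EC GFP+ (log2 change -0.43 ± 0.08, SE, limma adjusted p = 0.00446).

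**Figure D5:**
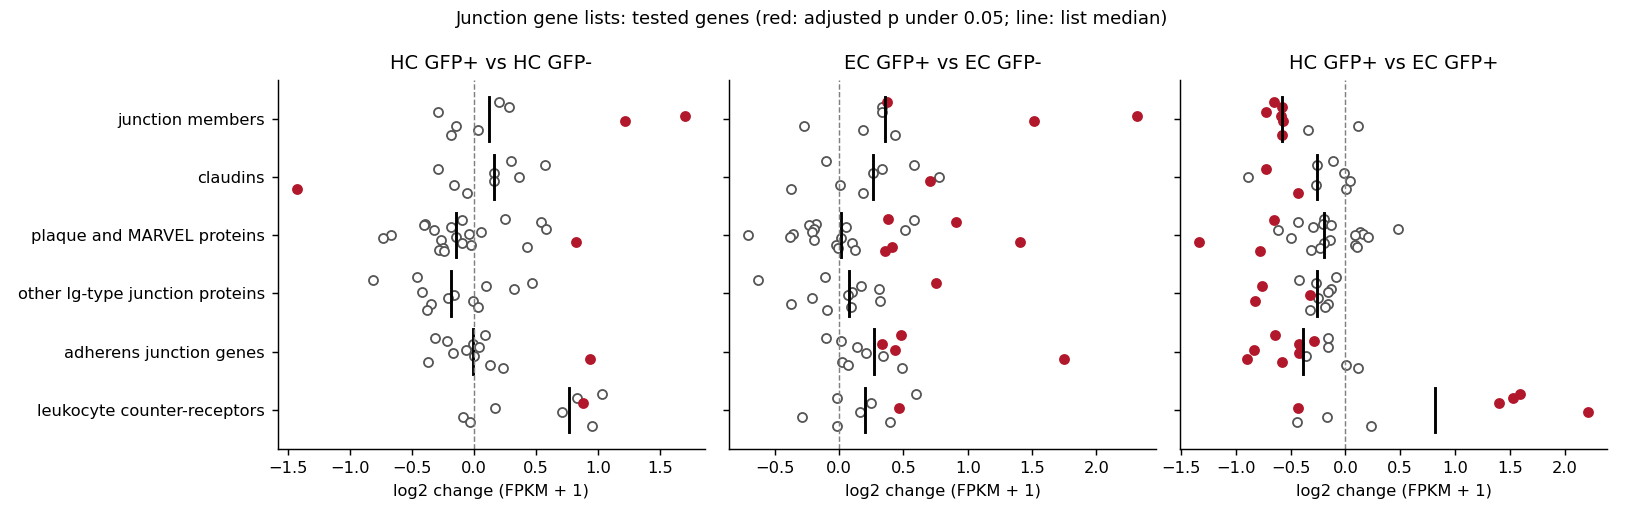
log2 change of each tested gene in the 8 junction genes and in 5 partner lists, for 3 comparisons; red points passed an adjusted p of 0.05, and vertical lines are list medians. In HC GFP+ against EC GFP+ the adhesion lists have their called genes on the left of 0, while 4 of the 5 called leukocyte counter-receptors lie on the right; Cldn5 is also among the claudins.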

How the data were processed

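Polyadenylated RNA of 12 pools of sorted cells was sequenced, per the labels' protocols. The authors deposited FPKM values per gene; per the submitters' processing notes, the genome build was mm9 and the tools named include Cufflinks and featureCounts, with versions and settings not given in the sources used here. FPKM carries no read counts, so depth per library and its counting error are unknown, and a library rich in a few RNAs lowers the FPKM of the rest.

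A gene was tested when 3 or more libraries read it at 1 FPKM or above (13278 of 33531 genes). Values were taken as log2(FPKM + 1) and fitted with limma 3.58.1 in R 4.3.3: 4 group means, 8 residual degrees of freedom, empirical Bayes with an intensity trend, two-sided, Benjamini-Hochberg adjustment over all tested genes for each of 5 comparisons, and a threshold of 0.05. The fit was tested on simulated data. All 8 junction genes are named; from each of 5 partner lists, up to 4 called genes per comparison in the order of their p and the best in the other direction could be named. The 8 genes and the lists were chosen with earlier results of these data known. Alternatives were another pseudocount (0.1), no filter, a stricter filter (mean of 5 FPKM), 5 scalings between libraries, no trend, a replicate block, each pair of groups fitted alone, and each library left out in turn. Promoter windows came from RefSeq tables of another build than the FPKM values and were used for sequence only. Figures were drawn with matplotlib 3.10.9.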

Additional observations from a re-analysis of the deposited data

How the results depend on the processing

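Ocln and Jam2 kept their calls in both GFP comparisons under every alternative that tested them, with log2 changes of 1.58 to 2.22 for Ocln and 1.07 to 1.41 for Jam2 in HC, and 1.90 to 2.91 and 1.07 to 1.69 in EC. FPKM without read counts limits how small a difference can be judged, chiefly for Ocln in GFP- pools. Among the changes of single junction genes under alternatives, 810 kept direction and side of the threshold, 44 lost a call and 20 gained one without a change of sign, and 33 changed sign. Of the 33, Pecam1 also lost a call and F11r also gained one, both in EC GFP+ against EC GFP- under the equal endothelial marker sum; the cause was not tested unless named.

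The stricter filter left 1 junction gene called in HC GFP+ against HC GFP-, since Ocln fell under it, and 363 genes in all. In EC GFP+ against EC GFP-, the equal sum called 7 junction genes and 2202 genes in all. The equal sum without globins and mitochondrial genes called 6 junction genes and 1851 genes in all. The pair of groups fitted alone called 939 genes in all. The equal endothelial marker sum, chosen after seeing the data, called 1 in HC GFP+ against EC GFP+, which was Jam3 and none of the 6 called in the deposited values. For HC GFP- against EC GFP-, no filter, both equal sums, quantile normalization, the equal endothelial marker sum, no trend and the pair of groups alone left 0 junction genes in limma (3 of 8 had an unadjusted p under 0.05 in the deposited values), and the replicate block gave 2; all genes called were 332 with no filter and 284 for the pair alone. For the HC change minus the EC change, called the difference of effects below, both equal sums called 1 junction gene. All genes called there were 39 with a pseudocount of 0.1, 39 with the stricter filter, 148 with the equal sum and 134 without globins and mitochondrial genes.

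With each library left out in turn, junction genes called ranged from 2 to 3 in HC GFP+ against HC GFP-, 2 to 5 in EC GFP+ against EC GFP-, 4 to 7 in HC GFP+ against EC GFP+, 0 to 2 in HC GFP- against EC GFP- and 0 to 0 for the difference of effects. All genes called ranged from 321 to 654, 1004 to 2203, 1261 to 2090, 91 to 698 and 23 to 77 in the same order.

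Signs turned mostly in changes near 0. With each library left out, the log2 change of F11r in HC GFP+ against HC GFP- ranged from -0.048 to 0.17, and that of Esam in the difference of effects from -0.16 to 0.14. In HC GFP- against EC GFP- the same ranges were -0.0092 to 0.048 for Ocln, -0.055 to 0.033 for Jam3 and -0.094 to 0.17 for Tjp1. With the equal endothelial marker sum, EC GFP+ against EC GFP- turned to -0.11 for Pecam1, -0.15 for Esam, -0.16 for Cldn5, -0.30 for F11r and -0.050 for Tjp1. The same scaling turned F11r to -0.15 in HC GFP+ against HC GFP- and to 0.13 in HC GFP+ against EC GFP+, Cldn5 to 0.069 and Jam3 to 0.15 in HC GFP- against EC GFP-, and the difference of effects to 0.13 for Pecam1, 0.25 for Esam, 0.00034 for Jam2 and 0.15 for F11r. The upper quartile turned F11r to -0.0051 in HC GFP+ against HC GFP- and Jam3 to 0.0055 in HC GFP- against EC GFP-. For HC GFP- against EC GFP-, the equal sum turned Cldn5 to 0.037 and Jam3 to 0.12, the equal sum without globins and mitochondrial genes turned Jam3 to 0.080, and quantile normalization turned Cldn5 to 0.047 and Ocln to -0.11. Jam3 turned to -0.024 and -0.0030 in the difference of effects with these equal sums.

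The replicate numbers were not taken as pairing the pools, since not every same-numbered pair correlated over 0.1 and the labels do not say what a number marks. Deviations from group means correlated between -0.08 and 0.27 in 18 same-numbered pairs (median 0.05, 4 over 0.1), and between -0.22 and 0.22 in 36 other pairs (median -0.03, 3 over 0.1). With the replicate block, F11r was called in HC GFP+ against EC GFP+ (adjusted p = 0.0133) and Esam in HC GFP- against EC GFP- (adjusted p = 0.0334), and all genes called in HC GFP+ against HC GFP- were 625.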
